A study of Mus musculus with 10 samples.

Results

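The interleukin receptor genes described here are 34 of the 27179 genes in the count table. They are the genes whose symbol begins with Il, a number and r, together with Il6st, the gene of the shared receptor chain gp130. Il1r1, Il23r, Il12rb2, Il18r1, Il1rl1, Il10ra, Il10rb and Il2ra were left out by the rule. The rule is written in symbols and uses no expression value, but it was chosen with earlier results of these data known. Of the 34 genes, 25 had enough counts to be tested and 9 did not. Il1rn meets the symbol rule but encodes the secreted antagonist of the IL-1 receptor, not a receptor chain.

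The cells were regulatory T cells (Tregs), CD4 T cells that need the transcription factor Foxp3 and restrain other immune cells, sorted by CD4, TCRb and a YFP reporter. The groups were Maf-KO gut (2 libraries), WT gut (2), Maf-KO spleen (3) and WT spleen (3), and gut means colon plus small intestine. Maf-KO mice were Maffl/fl x Foxp3Cre-YFP and WT mice Foxp3Cre-YFP, all on C57BL/6, so that both genotypes carried the Cre and reporter allele driven from Foxp3 and Maf was deleted where Foxp3 is or was active. The labels give no ages and do not say whether each replicate was a separate animal, so that p-values measure the spread between these samples. The series title asks how c-Maf in Tregs bears on intestinal TH17 cells and IgA.

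Libraries held 8567035 to 13983965 counts. Maf, the deleted gene, had 7 and 3 counts in Maf-KO gut against 859 and 918 in WT gut, and 2, 10 and 2 counts in Maf-KO spleen against 337, 312 and 484 in WT spleen. In edgeR's quasi-likelihood test its log2 fold change was -7.98 in gut (SE 0.57, adjusted p = 4.511e-04) and -6.04 in spleen (SE 0.46, adjusted p = 0.00188), so the libraries matched their labels. All 10 Treg markers examined were detected in every group, with summed levels of 10877 to 12260.1 CPM in gut and 5750.2 to 6339.7 CPM in spleen libraries. Most of this difference was Ctla4, at 5053 CPM in Maf-KO gut, 4979.8 in WT gut, 296 in Maf-KO spleen and 381 in WT spleen. Il2ra was lower in gut, at 359.5 CPM in Maf-KO and 354 in WT, against 565 in Maf-KO spleen and 603 in WT spleen. CPM are counts scaled to the library total, the total itself adjusted by the trimmed mean of M-values (TMM). Foxp3 averaged 193 CPM in Maf-KO gut, 181 in WT gut, 119 in Maf-KO spleen and 126 in WT spleen. In sorted bulk samples such as these, fewer cells of a type and less RNA per cell cannot be told apart.

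Interleukin receptors are built from a chain that binds the cytokine and a partner chain that is often shared. The common gamma chain (Il2rg) serves IL-2, IL-4, IL-7, IL-9, IL-15 and IL-21, gp130 serves the IL-6 group, and IL-17RA (Il17ra) pairs with other IL-17 receptor chains. Gamma chain and gp130 receptors signal through JAK kinases and STAT factors, and IL-1 and IL-17 receptors through adaptor proteins and TRAF6. Tregs depend on IL-2, and intestinal Tregs meet cytokines that also act on TH17 and type 2 cells.

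Promoter sequence is shown for Il17rb and Il6ra because they had the smallest adjusted p in both genotypes among the members higher and lower in gut than in spleen. They were chosen for display after their values were seen. Il17rb (Entrez 50905) lies on the minus strand at chr14:29996168-30008896 and Il6ra (Entrez 16194) on the minus strand at chr3:89869324-89913196 of GRCm38. The 250 bases before each start are given from RefSeq on GRCm38.p6, 5′ to 3′ on the gene's strand, for Il17rb at chr14:30008897-30009146 and for Il6ra at chr3:89913197-89913446. Capitals mark matches to a pair of motifs that were searched on both strands and do not overlap each other here, TGCTGAC, part of the element that Maf proteins bind, and TGANTCA, the element of AP-1 factors.
Il17rb: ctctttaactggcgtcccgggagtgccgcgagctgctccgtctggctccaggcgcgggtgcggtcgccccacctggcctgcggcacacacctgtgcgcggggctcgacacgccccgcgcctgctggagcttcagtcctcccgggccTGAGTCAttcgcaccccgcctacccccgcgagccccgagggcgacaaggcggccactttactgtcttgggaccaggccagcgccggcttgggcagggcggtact
Il6ra: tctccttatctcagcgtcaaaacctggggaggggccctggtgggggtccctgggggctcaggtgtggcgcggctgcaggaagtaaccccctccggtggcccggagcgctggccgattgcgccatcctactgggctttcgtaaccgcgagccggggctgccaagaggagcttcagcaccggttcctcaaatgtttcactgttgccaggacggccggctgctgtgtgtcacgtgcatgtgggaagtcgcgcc
The Il17rb window holds 1 TGANTCA match that starts 104 bases before the start of the gene, and the Il6ra window holds no match. TGANTCA occurs in 6.75% of all 32851 RefSeq windows of this length. Counted by gene, it occurs for 7.82% of the 27025 genes with an entry and for 7 of the 29 members with one (Il13ra2, Il15ra, Il17rb, Il1rn, Il20ra, Il22ra1 and Il5ra), of which 4 are among the 21 tested members with an entry. TGCTGAC occurs in 3.81% of all windows, for 4.31% of genes and for 0 of the 29 members. A match describes letters and shows no bound factor.

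Levels can be compared between genes only per length, as FPKM (counts scaled to gene length and library total), which were taken from the authors' log2 FPKM and averaged on the linear scale (SD, n = 2 in gut and 3 in spleen). The most abundant member was Il2rg, at 854 ± 33.2 FPKM in Maf-KO gut, 756 ± 47.5 in WT gut, 814 ± 10.1 in Maf-KO spleen and 765 ± 22.6 in WT spleen. Il2rb, the signalling beta chain for IL-2 and IL-15, came next with 516 ± 57.0 FPKM in Maf-KO gut, 378 ± 30.7 in WT gut, 679 ± 76.7 in Maf-KO spleen and 667 ± 69.1 in WT spleen. These chains of the IL-2 receptor thus stood at the head of the family in every group.

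Il21r, the IL-21 receptor, followed with 393 and 404 FPKM in the Maf-KO gut libraries, a mean of 218 ± 24.0 in WT gut, 170.3 ± 12.0 in Maf-KO spleen and 179.9 ± 26.5 in WT spleen. Il27ra, the specific chain for IL-27, ranged in its group means from 129.8 FPKM in Maf-KO spleen to 145 in WT gut. Il1r2, a decoy receptor that binds IL-1 without signalling, averaged 175 FPKM in Maf-KO gut, 100.5 in WT gut, 119.8 in Maf-KO spleen and 64.9 in WT spleen. Il7r, Il4ra, Il17ra, Il6st and Il12rb1 had group means between 20.3 and 139 FPKM, and Il7r stood above Il1r2 in WT gut, as did Il7r, Il17ra and Il6st in WT spleen.

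A middle tier held Il18rap (8.48 to 22.3 FPKM over the group means), Il15ra (12.9 to 15.6), Il9r (7.05 to 11.2), Il3ra (4.79 to 7.67) and Il1rap (3.33 to 5.74). Il17rb and Il6ra crossed this order between tissues. Il17rb averaged 36.7 FPKM in Maf-KO gut and 51.4 in WT gut, against 3.09 in Maf-KO spleen and 1.93 in WT spleen. Il6ra averaged 3.42 FPKM in Maf-KO gut and 2.72 in WT gut, against 40.9 in Maf-KO spleen and 40.2 in WT spleen. The remaining tested members, Il13ra1, Il1rn, Il1rl2, Il17re, Il11ra1, Il20rb, Il5ra and Il17rd, had group means of 3.02 FPKM or less.

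**Figure D1:**
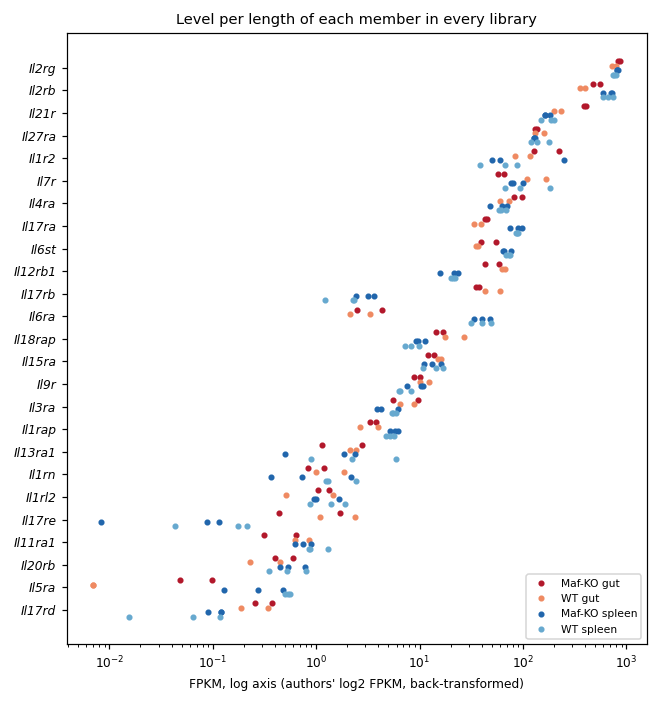
FPKM (log axis, authors' log2 FPKM back-transformed) of the 25 tested interleukin receptor genes, 1 point per library, colours for the 4 groups. Il2rg and Il2rb lie at the top in every library, and Il17rb and Il6ra are the genes whose gut and spleen means lie farthest apart among those above 10 FPKM in some group; Il5ra had 0 counts in WT gut, where the point is the authors' offset.

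Gut and spleen Tregs were compared within each genotype. In Maf-KO, 11 of the 25 tested members (44%) differed, 9 higher and 2 lower in gut, against 28.5% of all 13214 genes tested (14.4% higher and 14.1% lower). In WT, 12 of the 25 (48%) differed, 7 higher and 5 lower, against 28.0% of all genes (14.7% higher and 13.3% lower). Calls are edgeR quasi-likelihood tests with a Benjamini-Hochberg adjusted p, over all genes, under 0.05. The median log2 fold change of the members was 0.23 in Maf-KO (all genes -0.02) and 0.25 in WT (all genes -0.03), also with Il5ra, which had no count in WT gut, set at its bound in WT. Il17rb, Il17ra, Il17re, Il17rd, Il6ra, Il12rb1, Il18rap and Il21r were called in both genotypes, Il4ra, Il2rg and Il3ra in Maf-KO and not in WT, and Il6st, Il2rb, Il9r and Il5ra in WT and not in Maf-KO.

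Markers of other cells also differed between tissues. The 6 plasma cell markers summed to 1531 and 3883 CPM in Maf-KO gut and 2558 and 6945 in WT gut, against 273 to 382 in Maf-KO spleen and 232 to 339 in WT spleen, and 4 were called higher in gut in Maf-KO and 5 in WT. Jchain, the joining chain of secreted IgA and IgM, was most of this sum, at 2224 CPM in Maf-KO gut and 4163 in WT gut. The 9 pancreatic acinar markers summed to 168 CPM in WT gut replicate 1 and to 39.1 CPM or less in every other library. The 8 stroma and endothelium markers summed to 45.3 and 79.6 CPM in Maf-KO gut and 64.9 and 66.6 in WT gut, against 114 to 176 in Maf-KO spleen and 125 to 191 in WT spleen, with 2 called higher and 1 lower in each genotype. Pecam1 was most of that sum, at 52.8 CPM in Maf-KO gut, 52.7 in WT gut, 134 in Maf-KO spleen and 164 in WT spleen. Col3a1 went the other way, at 3.3 CPM in Maf-KO gut and 5.34 in WT gut. It had 0.0325 CPM in Maf-KO spleen and 0.0593 in WT spleen, and Dcn was also higher in gut. The endothelial genes Cdh5 and Kdr were scarce in every group, with group means of at most 0.271 CPM for Cdh5 and 0.699 CPM for Kdr. The part of all these markers in the members' differences was not tested.

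The splits depended on scaling. With library totals alone in place of TMM, the median of all genes moved to -0.28 in Maf-KO and -0.30 in WT. The share of higher genes among all calls moved to 25.1% in Maf-KO and 25.2% in WT (with TMM 50.5% in Maf-KO and 52.4% in WT). The members' calls moved to 6 higher and 6 lower in each genotype. All genes called rose as well, to 4944 of 13214 in Maf-KO (with TMM 3772) and 5269 in WT (with TMM 3703). Changes below are relative to TMM. Each of the 4 gut libraries shares the number in its title with a spleen library of the same genotype, so a fit with this number as a fixed factor was also made, called the paired fit here. It called 13 members in Maf-KO (39.7% of all genes) and 14 in WT (37.2% of all genes).

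IL-17 receptor genes moved in opposite directions. Il17rb, the receptor chain for IL-25 that pairs with IL-17RA, had 78.4 and 84.5 CPM in Maf-KO gut and 91.8 and 133 CPM in WT gut, against 6.83, 4.51 and 5.94 CPM in Maf-KO spleen and 4.0, 4.31 and 2.28 CPM in WT spleen. Every gut library stood above every spleen library. Its log2 fold change was 3.82 in Maf-KO (SE 0.25, adjusted p = 7.151e-06) and 4.98 in WT (SE 0.26, adjusted p = 1.798e-06), the lowest adjusted p of any member in both genotypes.

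The Il17rb locus overlaps Actr8 on the other strand, and no source used here gives the strand setting of the counting. Actr8 averaged 50.5 CPM in Maf-KO gut, 59.9 in WT gut, 57.0 in Maf-KO spleen and 66.8 in WT spleen, and its log2 fold change between tissues was -0.18 in Maf-KO (SE 0.14, adjusted p = 0.402) and -0.16 in WT (SE 0.14, adjusted p = 0.455). Markers of mast cells, basophils and eosinophils also stood higher in gut, with summed levels of 71.5 and 92.1 CPM in Maf-KO gut and 64.8 and 109 in WT gut against 4.29 to 6.94 in spleen libraries. Most of that sum was Kit (78.0 CPM in Maf-KO gut and 83.0 in WT gut). Of the 9 markers 3 were tested, and 2 were called higher in gut in each genotype, Kit and the eosinophil granule gene Prg2, which averaged 3.07 CPM in Maf-KO gut and 2.89 in WT gut against 0.22 in Maf-KO spleen and 0.44 in WT spleen. The mast cell genes Mcpt1 and Tpsb2 had 0 counts in every library, and Cpa3 stayed below 1 CPM in each group mean. Their part in the Il17rb result was not tested.

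Il17ra, the shared signalling chain for IL-17A, IL-17F and IL-25, had 183 and 191 CPM in Maf-KO gut and 137 and 171 in WT gut, against 271, 356 and 326 CPM in Maf-KO spleen and 296, 324 and 319 in WT spleen. All 4 gut libraries were below all 6 spleen libraries. It fell by 0.77 on the log2 scale in Maf-KO gut (SE 0.14, adjusted p = 0.00304) and by 1.02 in WT gut (SE 0.14, adjusted p = 6.439e-04).

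Il17re, the chain that binds IL-17C, had 1.39 and 5.51 CPM in Maf-KO gut and 7.28 and 3.55 in WT gut, against 0, 0.22 and 0.292 CPM in Maf-KO spleen and 0.533, 0.462 and 0.0949 in WT spleen. It was detected at low level in gut and near the detection limit in spleen, where 3 counts correspond to 0.231 to 0.33 CPM. Its log2 fold change was 4.22 in Maf-KO (SE 0.89, adjusted p = 0.00607) and 3.83 in WT (SE 0.78, adjusted p = 0.00525). Without Maf-KO gut replicate 3 the Maf-KO value was 2.92 (adjusted p = 0.0783).

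Il17rd, a chain first described as an inhibitor of FGF signalling, had 3.30 and 2.23 CPM in Maf-KO gut and 2.89 and 1.66 in WT gut, against 0.867, 0.661 and 0.877 in Maf-KO spleen and 0.0889, 0.462 and 0.854 in WT spleen. Gut and spleen libraries did not overlap, at levels of 3.30 CPM or less. The log2 fold change was 1.77 in Maf-KO (SE 0.58, adjusted p = 0.0459) and 2.26 in WT (SE 0.62, adjusted p = 0.0222). In the paired fit the Maf-KO value was 1.80 (adjusted p = 0.0672), and the call was lost in 11 of 18 alternatives in Maf-KO and in 3 of 18 in WT, there without WT gut replicate 1 (1.81, adjusted p = 0.166), without WT spleen replicate 2 (2.26, adjusted p = 0.0611) and on the log2 FPKM (2.38, adjusted p = 0.0537). Markers of gut epithelium, a tissue that uses Il17re, summed to 149 and 159 CPM in Maf-KO gut and 145 and 179 in WT gut against 35.5 to 71.2 in spleen libraries, with Epcam (124 CPM in Maf-KO gut, 145 in WT gut) the main part. Of the 12 epithelial markers 6 were tested and 3 were called higher in gut in each genotype, Epcam, Cdh1 and Krt19 in Maf-KO and Epcam, Cdh1 and Krt18 in WT. Cdh1, the E-cadherin gene, averaged 22.5 CPM in Maf-KO gut and 5.71 in WT gut, against 2.14 in Maf-KO spleen and 1.27 in WT spleen, and Krt8 and Vil1 had 1.26 CPM or less in each group mean. The part of these markers in the Il17re and Il17rd results was not tested.

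**Figure D2:**
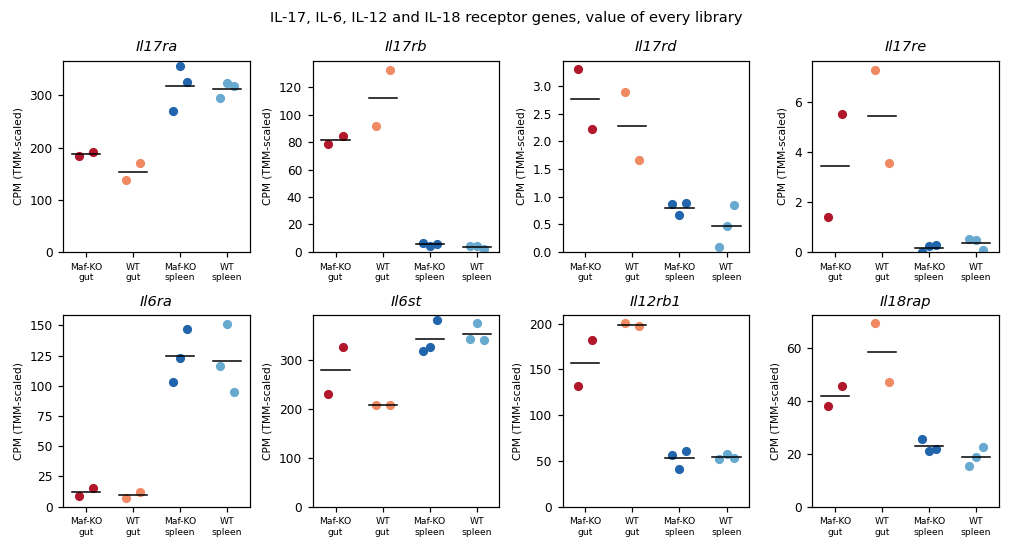
CPM (TMM-scaled, linear axes from 0) of 8 receptor genes in every library, 1 point per library and a line at the group mean, for Maf-KO gut, WT gut, Maf-KO spleen and WT spleen. Il17rb (78.4 to 133 CPM in gut, 2.28 to 6.83 in spleen) and Il6ra (7.28 to 15.7 in gut, 94.6 to 151 in spleen) are separated in opposite directions.

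Of the IL-6 receptor genes, Il6ra was called lower in gut in both genotypes and Il6st in WT. Il6ra, the chain that binds IL-6, had 8.87 and 15.7 CPM in Maf-KO gut and 7.28 and 12.1 in WT gut, against 103, 123 and 147 CPM in Maf-KO spleen and 116, 151 and 94.6 in WT spleen. Gut and spleen ranges were far apart in both genotypes. It fell by 3.33 on the log2 scale in Maf-KO gut (SE 0.32, adjusted p = 7.396e-05) and by 3.63 in WT gut (SE 0.34, adjusted p = 4.946e-05).

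Il6st, whose product gp130 carries the signal of IL-6, IL-11 and IL-27, had 231 and 326 CPM in Maf-KO gut and 207 and 208 in WT gut, against 317, 327 and 382 CPM in Maf-KO spleen and 342, 375 and 340.1 in WT spleen. The WT ranges were apart, and the Maf-KO ranges overlapped through gut replicate 3. It fell by 0.77 on the log2 scale in WT gut (SE 0.15, adjusted p = 0.00484). In Maf-KO the log2 fold change was -0.30 (SE 0.15, adjusted p = 0.176), but -0.36 with adjusted p = 0.0209 in the paired fit and -0.34 with adjusted p = 0.0219 when the title number was a random effect.

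Il27ra had group means of 380.3 CPM in Maf-KO gut, 408 in WT gut, 313 in Maf-KO spleen and 343 in WT spleen. Its log2 fold change was 0.28 in Maf-KO (SE 0.16, adjusted p = 0.234) and 0.25 in WT (SE 0.16, adjusted p = 0.287), and in the paired fit 0.27 in Maf-KO (adjusted p = 0.0472) and 0.44 in WT (adjusted p = 0.00649). With the random effect it was called in WT (0.36, adjusted p = 0.0292). Its locus overlaps Palm3 on the other strand, which averaged 0.943 CPM in Maf-KO gut, 1.71 in WT gut, 1.47 in Maf-KO spleen and 2.34 in WT spleen. Il11ra1, a chain for IL-11, averaged 0.971 CPM in Maf-KO gut, 1.51 in WT gut, 1.32 in Maf-KO spleen and 1.75 in WT spleen and was not called. It has a near-identical copy, Il11ra2, and its locus overlaps other genes, so its count is uncertain.

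The shared IL-12 and IL-23 chain and the IL-18 accessory chain were higher in gut. Il12rb1 had 132 and 182 CPM in Maf-KO gut and 201 and 197 in WT gut, against 56.5, 41.3 and 61.1 CPM in Maf-KO spleen and 52.3, 57.3 and 52.7 in WT spleen. All gut values were more than the highest spleen value, and the log2 fold change was 1.57 in Maf-KO (SE 0.17, adjusted p = 1.606e-04) and 1.88 in WT (SE 0.17, adjusted p = 4.724e-05). Il12rb1 pairs with ligand-specific chains to bind IL-12 or IL-23.

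Il18rap, which completes the IL-18 receptor, had 38.1 and 45.6 CPM in Maf-KO gut and 69.7 and 47.2 in WT gut, against 25.6, 21.0 and 21.9 CPM in Maf-KO spleen and 15.4, 18.9 and 22.5 in WT spleen. Gut and spleen did not overlap in either genotype. Gut over spleen gave a log2 fold change of 0.87 in Maf-KO (SE 0.21, adjusted p = 0.0107) and 1.63 in WT (SE 0.21, adjusted p = 3.709e-04). Without Maf-KO gut replicate 3 the Maf-KO value was 0.74 (adjusted p = 0.0909). The summed markers of CD8 T, NK and innate lymphoid cells, which express both genes, were lower in gut, at 32.7 and 34.1 CPM in Maf-KO gut and 21.7 and 31.3 in WT gut against 41.2 to 103 in spleen libraries. Of these 7 markers 2 were called lower in gut in each genotype and 0 higher. The part of such cells in the Il12rb1 and Il18rap results was not tested.

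Among the common gamma chain receptors, Il21r was called higher in gut in both genotypes. It had 1096 and 1139 CPM in Maf-KO gut and 632 and 567 in WT gut, against 434, 386 and 389 CPM in Maf-KO spleen and 339, 482 and 442 in WT spleen. Maf-KO gut libraries stood above all others and WT gut libraries above all spleen libraries. The log2 fold change was 1.47 in Maf-KO (SE 0.15, adjusted p = 9.093e-05) and 0.51 in WT (SE 0.15, adjusted p = 0.0276).

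The WT call of Il21r was lost with library totals alone (0.25, adjusted p = 0.178), on the log2 FPKM (0.28, adjusted p = 0.127) and without WT gut replicate 1 (0.43, adjusted p = 0.163), WT gut replicate 3 (0.59, adjusted p = 0.0544) or WT spleen replicate 1 (0.38, adjusted p = 0.0552). Il21r (chr7:125603252-125634397) lies next to Il4ra (chr7:125552271-125579474) on the same strand, 23778 bases apart. Il4ra, the chain that binds IL-4 and, with Il13ra1, IL-13, had 451 and 539 CPM in Maf-KO gut and 389 and 333 in WT gut, against 223, 290.3 and 321 in Maf-KO spleen and 267, 322 and 274 in WT spleen.

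Every gut library was above every spleen library for Il4ra too. Its log2 fold change was 0.83 in Maf-KO (SE 0.17, adjusted p = 0.00468) and 0.33 in WT (SE 0.17, adjusted p = 0.177). The WT value passed the threshold in the paired fit (0.41, adjusted p = 0.0143) and with the random effect (0.37, adjusted p = 0.0327), and the Maf-KO call was lost without Maf-KO gut replicate 3 (0.70, adjusted p = 0.0502).

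Il2rb had 1373 and 1620.1 CPM in Maf-KO gut and 1115 and 1042 in WT gut, against 1792, 1455 and 1739 CPM in Maf-KO spleen and 1401, 1822 and 1620.0 in WT spleen. WT gut lay below WT spleen, and the Maf-KO ranges overlapped. It fell by 0.58 on the log2 scale in WT gut (SE 0.15, adjusted p = 0.0178), a call lost without WT gut replicate 1 (adjusted p = 0.066), WT gut replicate 3 (adjusted p = 0.0888) or WT spleen replicate 2 (adjusted p = 0.0531). In Maf-KO the log2 fold change was -0.15 (SE 0.15, adjusted p = 0.498).

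Il2rg had 1434 and 1529 CPM in Maf-KO gut and 1316 and 1263 in WT gut, against 1184, 1214 and 1178 in Maf-KO spleen and 1039.9, 1116 and 1157 in WT spleen. Gut values were above spleen values in both genotypes by a small margin. Gut over spleen gave a log2 fold change of 0.31 in Maf-KO (SE 0.10, adjusted p = 0.0462) and 0.22 in WT (SE 0.10, adjusted p = 0.136). The Maf-KO call was lost in 12 of 18 alternatives, among them the paired fit (0.31, adjusted p = 0.0531) and library totals alone (0.06, adjusted p = 0.682), and the WT value passed with the random effect (0.23, adjusted p = 0.0301).

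Il9r, the receptor for IL-9, had 33.1 and 29.2 CPM in Maf-KO gut and 31.9 and 41.5 in WT gut, against 29.8, 21.2 and 29.1 in Maf-KO spleen and 17.3, 23.5 and 17.6 in WT spleen. WT gut lay above WT spleen, and the Maf-KO ranges overlapped. The log2 fold change was 0.22 in Maf-KO (SE 0.20, adjusted p = 0.461) and 0.91 in WT (SE 0.20, adjusted p = 0.0083), and the WT call was lost without WT gut replicate 3 (0.71, adjusted p = 0.0732). Il15ra, which presents IL-15, had group means of 21.4 CPM in Maf-KO gut, 25.7 in WT gut, 18.9 in Maf-KO spleen and 19.3 in WT spleen and was not called.

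Il7r, the receptor for IL-7 and a marker of resting T cells, had 199 and 225 CPM in Maf-KO gut and 365 and 585 in WT gut, against 220.4, 295 and 235 CPM in Maf-KO spleen and 261, 199 and 534 in WT spleen. The values of 585 and 534 CPM come from WT gut and WT spleen replicate 3, which share a title number, and they were the highest. The log2 fold change between tissues was -0.24 in Maf-KO (SE 0.37, adjusted p = 0.672) and 0.52 in WT (SE 0.36, adjusted p = 0.314).

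**Figure D3:**
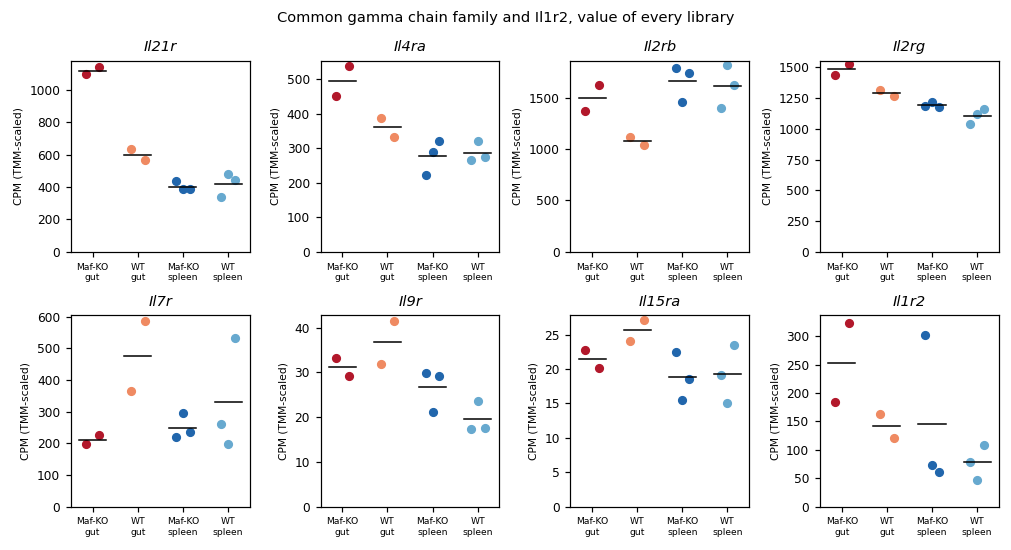
CPM (TMM-scaled, linear axes from 0) of 7 common gamma chain family genes and Il1r2 in every library, 1 point per library and a line at the group mean, for Maf-KO gut, WT gut, Maf-KO spleen and WT spleen. Il21r is highest in Maf-KO gut (1096 and 1139 CPM), Il7r is high in replicate 3 of both WT tissues (585 and 534 CPM), and Il1r2 has 1 high Maf-KO spleen library (302 CPM).

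Of the chains that pair with the common beta chain, Il5ra was called lower in gut in WT and Il3ra higher in gut in Maf-KO. Il5ra, the IL-5 receptor of eosinophils and some B cells, had 4 and 2 counts in Maf-KO gut and 0 and 0 in WT gut, against 8, 14 and 4 counts in Maf-KO spleen and 19, 21 and 18 in WT spleen. In WT this was 9.13-fold lower in gut, with WT gut set at a floor of 3 counts over the group (edgeR adjusted p = 0.00341). The exact counting interval of the gut over spleen ratio ran up to 0.139 and covers counting error only. In Maf-KO the log2 fold change was -1.83 (SE 0.71, adjusted p = 0.0858), and -1.58 with adjusted p = 0.036 with the random effect.

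Markers of B cells were also lower in gut than in spleen. Their summed level was 58.7 and 88.7 CPM in Maf-KO gut and 62.7 and 77.6 in WT gut, against 256, 444 and 159.7 CPM in Maf-KO spleen and 296, 223 and 342 in WT spleen. Of the 8 B cell markers 6 were called lower in gut in each genotype, and the 3 Maf-KO spleen libraries had the same order by Il5ra and by this sum. Between genotypes the sums overlapped in spleen, while Il5ra was lower in every Maf-KO spleen library than in every WT spleen library. The part of B cells in the Il5ra result was not tested.

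Il3ra, the chain for IL-3, had 8.26 and 14.4 CPM in Maf-KO gut and 12.8 and 9.70 in WT gut, against 7.81, 4.95 and 5.36 in Maf-KO spleen and 7.11, 6.93 and 7.02 in WT spleen. Gut and spleen did not overlap within a genotype. In log2 terms the change was 0.91 in Maf-KO (SE 0.29, adjusted p = 0.0409) and 0.68 in WT (SE 0.29, adjusted p = 0.111). The Maf-KO call was lost in 8 of 18 alternatives, with 0.46 (adjusted p = 0.4) without Maf-KO gut replicate 3, and the WT value passed with the random effect (0.66, adjusted p = 0.0438).

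In the IL-1 receptor family no member other than Il18rap was called between tissues. Il1r2 had 184 and 323 CPM in Maf-KO gut and 164 and 121 in WT gut, against 302, 74.0 and 61.4 CPM in Maf-KO spleen and 78.5, 47.2 and 108 in WT spleen. WT gut lay above WT spleen, and in Maf-KO spleen replicate 1 alone reached the gut range. Gut over spleen gave a log2 fold change of 0.80 in Maf-KO (SE 0.61, adjusted p = 0.366) and 0.87 in WT (SE 0.61, adjusted p = 0.326). Without Maf-KO spleen replicate 1 it was 1.90 in Maf-KO (adjusted p = 0.00705), in the paired fit, where that library has a number of its own, 1.86 (adjusted p = 8.648e-04), and with the random effect 1.49 (adjusted p = 0.0206).

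The summed macrophage, monocyte, neutrophil and dendritic cell markers, cells that also use Il1r2, were 196 CPM in Maf-KO spleen replicate 1 and 560.3 and 156 CPM in the other Maf-KO spleen libraries. In WT spleen these sums were 278, 187 and 928 CPM, the same order as Il1r2 there. In gut they were 294 and 107 CPM in Maf-KO and 117 and 229.8 in WT, the opposite order to Il1r2 in both. In Maf-KO spleen replicate 2, the library at 560.3 CPM, S100a8 held 122 CPM and S100a9 103 CPM of the sum. The part of these cells in the Il1r2 values was not tested. Il1rap, the accessory chain that IL-1 receptors need to signal, had group means of 32.2 CPM in Maf-KO gut, 29.8 in WT gut, 44.2 in Maf-KO spleen and 39.8 in WT spleen. Its log2 fold change was -0.46 in Maf-KO (SE 0.17, adjusted p = 0.0762) and -0.42 in WT (SE 0.18, adjusted p = 0.103). It passed with library totals alone (-0.72, adjusted p = 0.0102 in Maf-KO; -0.68, adjusted p = 0.0129 in WT) and in Maf-KO with the random effect (-0.42, adjusted p = 0.0412).

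Il1rn averaged 2.89 CPM in Maf-KO gut, 4.10 in WT gut, 2.65 in Maf-KO spleen and 4.03 in WT spleen. It was called in the paired fit in Maf-KO (1.16, adjusted p = 0.0342) and not otherwise (0.13, SE 0.66, adjusted p = 0.908). Il1rl2, the IL-36 receptor, averaged 2.48 CPM in Maf-KO gut, 1.98 in WT gut, 2.11 in Maf-KO spleen and 2.39 in WT spleen, and Il20rb, a chain for IL-19, IL-20 and IL-24, averaged 1.30 CPM in Maf-KO gut, 0.861 in WT gut, 1.30 in Maf-KO spleen and 1.20 in WT spleen. Il13ra1, a chain for IL-13, averaged 7.71 CPM in Maf-KO gut, 8.93 in WT gut, 5.25 in Maf-KO spleen and 9.98 in WT spleen. Its highest value, 19.8 CPM, was in WT spleen replicate 3, where the summed macrophage and related markers were also highest at 928 CPM, and their part in it was not tested.

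**Figure D4:**
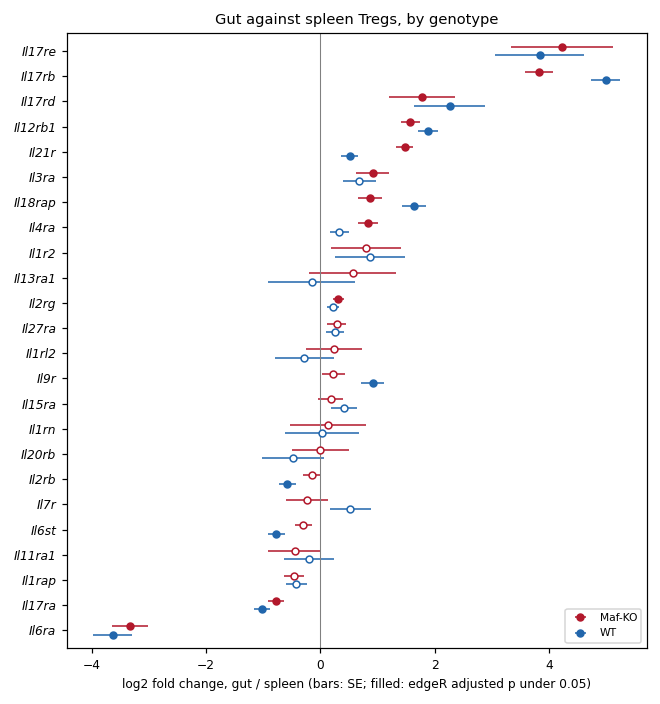
Log2 fold change of gut over spleen (x axis, bars SE) for 24 tested members (y axis), Maf-KO in red and WT in blue, filled where the edgeR adjusted p was under 0.05. Il17re and Il17rb lie farthest to the right and Il6ra farthest to the left (-3.33 in Maf-KO and -3.63 in WT); Il5ra, with no count in WT gut, is not drawn.

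Loss of Maf gave no called change among the members. In gut 0 of 25 were called in edgeR, against 0.151% of all genes (20 of 13214), and in spleen 0 of 25 against 0.0151% (2 of 13214). At an unadjusted p under 0.05 there were 6 members in gut (8.14% of all genes) and 2 in spleen (2.85% of all genes). The median log2 fold change of the members was 0.11 in gut (all genes -0.00) and -0.03 in spleen (all genes -0.01). Values of these members follow, since a p that misses the threshold does not show that levels were alike.

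Il21r had the lowest p of the members in gut. With the values given above it averaged 1118 ± 30.0 CPM in Maf-KO gut and 599.8 ± 46.0 in WT gut (SD, n = 2 each), and 403 ± 27.1 CPM in Maf-KO spleen and 421 ± 73.6 in WT spleen (SD, n = 3 each). The log2 fold change was 0.90 in gut (SE 0.16, unadjusted p = 2.861e-04, adjusted p = 0.111) and -0.06 in spleen (SE 0.13, adjusted p = 0.999). In gut DESeq2 called it (0.90, adjusted p = 8.197e-05, with 0.848% of all genes called) and so did edgeR without the low-count filter (0.92, adjusted p = 0.0228, with 0.368% called), while over all 17 alternatives the adjusted p ran from 8.197e-05 to 0.484.

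Other gamma chain members below p 0.05 in gut were Il7r, Il2rb and Il4ra. Il7r averaged 212 ± 18.9 CPM in Maf-KO gut and 475 ± 155 in WT gut, with a log2 fold change of -1.16 (SE 0.40, unadjusted p = 0.0161, adjusted p = 0.49) that was -0.78 without WT gut replicate 3. Il2rb averaged 1496 ± 175 CPM in Maf-KO gut and 1079 ± 51.4 in WT gut (0.47, SE 0.17, unadjusted p = 0.017, adjusted p = 0.49). Il4ra had 451 and 539 CPM in Maf-KO gut against 389 and 333 in WT gut (0.46, SE 0.18, unadjusted p = 0.0336, adjusted p = 0.579). For each of these the 2 libraries of one genotype lay on one side of the 2 of the other. Such separation also occurred at a high unadjusted p in edgeR, for Il1r2 (0.249) and Il15ra (0.297), and is not read as support.

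Il6st averaged 279 ± 67.6 CPM in Maf-KO gut and 207 ± 0.738 in WT gut (0.43, SE 0.17, unadjusted p = 0.0273, adjusted p = 0.55), and the log2 fold change was 0.16 without Maf-KO gut replicate 3. Il5ra had 6 counts in Maf-KO gut and 0 in WT gut (edgeR adjusted p = 0.55). With WT gut set at the floor of 3 counts, the ratio of Maf-KO to WT was 1.37. The exact counting interval of this ratio ran from 0.804, so counting error alone does not exclude equal levels or a decrease. Il1r2 averaged 253 ± 98.2 CPM in Maf-KO gut and 142 ± 30.0 in WT gut (0.83, SE 0.68, adjusted p = 0.812). Among the IL-17 receptors Il17rb averaged 81.5 ± 4.29 CPM in Maf-KO gut and 113 ± 29.3 in WT gut (-0.47, SE 0.25, adjusted p = 0.683).

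In spleen the members below an unadjusted p of 0.05 were Il17rb and Il9r. Il17rb averaged 5.76 ± 1.17 CPM in Maf-KO spleen and 3.53 ± 1.10 in WT spleen (0.69, SE 0.26, unadjusted p = 0.0246, adjusted p = 0.999). All Maf-KO values were above all WT values, as they also were for Il2rg (unadjusted p = 0.262). Il9r averaged 26.7 ± 4.76 CPM in Maf-KO spleen and 19.5 ± 3.46 in WT spleen (0.45, SE 0.19, unadjusted p = 0.0345, adjusted p = 0.999). Il1r2 averaged 146 ± 136 CPM in Maf-KO spleen and 77.9 ± 30.4 in WT spleen, and its log2 fold change of 0.91 (SE 0.56, adjusted p = 0.999) became -0.20 without Maf-KO spleen replicate 1.

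**Figure D5:**
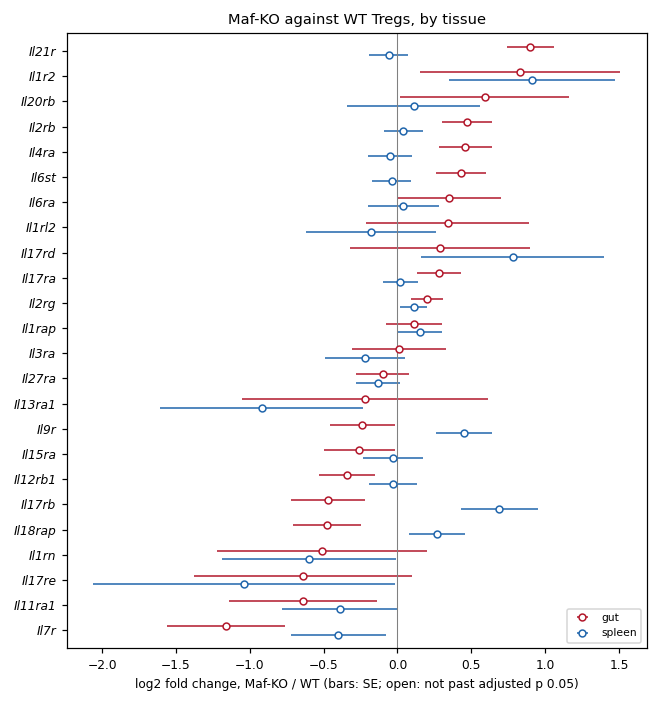
Log2 fold change of Maf-KO over WT (x axis, bars SE) for 24 tested members (y axis), gut in red and spleen in blue, all open because none passed an edgeR adjusted p of 0.05. Il21r (0.90 in gut and -0.06 in spleen) and Il7r (-1.16 in gut) lie at the ends in gut; Il5ra, with no count in WT gut, is not drawn.

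The difference of the Maf effect between gut and spleen, which is also the difference of the tissue effect between Maf-KO and WT, was called for 0 of 25 members and for 0 of all 13214 genes (0%) in edgeR. Unadjusted, 5 members had p under 0.05 (3.19% of all genes). Il21r had the lowest p, with a difference of 0.96 (SE 0.21, unadjusted p = 0.00109, adjusted p = 1), and DESeq2 called it (adjusted p = 0.0263, with 0.0606% of all genes called). Il17rb followed with -1.16 (SE 0.36, unadjusted p = 0.00955), then Il5ra, Il18rap with -0.76 (SE 0.30, unadjusted p = 0.0286) and Il9r with -0.69 (SE 0.29, unadjusted p = 0.0392), each with an adjusted p of 1 in edgeR. For members called between tissues in 1 genotype only, such as Il9r, Il2rb and Il4ra, the genotypes are therefore not shown to differ.

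The 9 members without enough counts were Il22ra2, Il20ra, Il31ra, Il11ra2, Il22ra1, Il17rc, Il1rapl1, Il1rapl2 and Il13ra2. Il22ra1, the signalling chain for IL-22 of epithelial cells, and Il1rapl1 had 0 counts in all 10 libraries, below the limit of 3 counts or 0.231 to 0.377 CPM. Il17rc, which pairs with IL-17RA for IL-17A and IL-17F, had 3 and 9 counts in Maf-KO gut and 7 and 3 in WT gut, against 1, 5 and 3 in Maf-KO spleen and 4, 3 and 6 in WT spleen. Il22ra2, a soluble protein that captures IL-22, had 4 and 3 counts in Maf-KO gut and 3 and 10 in WT gut, against 0, 0 and 1 in Maf-KO spleen and 0, 0 and 0 in WT spleen. In WT it was 9.18-fold higher in gut with WT spleen set at a floor of 3 counts over the group (exact 95% counting interval from 6.46). In Maf-KO the ratio was 8.32 (exact 95% counting interval 1.07 to 375). Both intervals cover counting error only. Il31ra, the IL-31 receptor, had at most 8 counts in a library, and the other 4 at most 2.

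Lists of genes around these receptors, drawn up with earlier results of these data known, showed 0 called genes for Maf-KO against WT in either tissue (0.151% of all genes in gut, 0.0151% in spleen). Between gut and spleen, 11 of 14 partner and related receptor chains were tested, and in both genotypes 2 were higher in gut and 1 lower, a share near that of all genes (28.5% in Maf-KO and 28.0% in WT). Ifngr1, the IFN-gamma receptor chain, had log2 fold changes of 2.19 in Maf-KO (SE 0.33, adjusted p = 0.001) and 1.96 in WT (SE 0.33, adjusted p = 0.00184). Crlf2, which binds TSLP together with Il7r, had log2 fold changes of 0.93 in Maf-KO (SE 0.19, adjusted p = 0.00491) and 0.85 in WT (SE 0.19, adjusted p = 0.00781), and Ifnar2, a type I interferon receptor chain, of -0.74 in Maf-KO (SE 0.12, adjusted p = 0.00147) and -0.71 in WT (SE 0.12, adjusted p = 0.00192).

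Of 11 JAK and STAT genes tested, 4 were higher and 1 lower in Maf-KO gut than in Maf-KO spleen, and 1 higher and 1 lower in WT, a share above the 28.5% of all genes in Maf-KO and below the 28.0% in WT. Jak2 was higher in both (1.29, SE 0.12, in Maf-KO and 1.46, SE 0.12, in WT) and Stat2 lower in both (-0.82, SE 0.13, in Maf-KO and -0.83, SE 0.13, in WT), while Jak3, which binds the common gamma chain, was called in Maf-KO (0.67, SE 0.15, adjusted p = 0.01), as were Stat3 and Stat5a. Of 8 SOCS feedback inhibitors 2 were higher in Maf-KO gut (Socs4 and Cish) and 3 in WT gut (also Socs5), with none lower. Of 10 IL-1 and IL-17 receptor adaptors 4 were higher in gut in both genotypes (Tab2, Tollip, Irak2 and Traf6) and 1 lower. The lower gene was Traf3ip2, the adaptor Act1 of IL-17 receptors (-0.49, SE 0.12, in Maf-KO and -0.55, SE 0.12, in WT). Both lists stand against 28.5% of all genes called in Maf-KO and 28.0% in WT, and both are short.

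Of 33 interleukin ligand genes 13 were tested, of which 6 were higher and 2 lower in Maf-KO gut than in Maf-KO spleen, and 5 higher and 2 lower in WT, against 28.5% of all genes called in Maf-KO and 28.0% in WT. Il22 averaged 18.8 ± 6.86 CPM in Maf-KO gut and 11.4 ± 4.28 in WT gut against 0 in Maf-KO spleen and 0.0296 ± 0.0513 in WT spleen, and Il17a averaged 7.77 ± 4.35 in Maf-KO gut and 5.62 ± 3.43 in WT gut against 0 in both spleen groups. Il17f, Il1b and Ebi3 were also higher in both genotypes, and Il16 and Il18 lower. The receptor chain for IL-17A and IL-17F, Il17ra, was lower in the tissue where the ligand transcripts were detected, and the IL-22 receptor chain Il22ra1 had no count in either.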

How the data were processed

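RNA of sorted Tregs was made into libraries with a TruSeq kit, per the labels' protocols. The authors' deposited table gives unnormalised counts of reads for each Entrez gene. The deposited log2 files hold the authors' log2 FPKM for 12252 genes, per the file headers. Subread, featureCounts and limma are listed in the submitters' processing notes, with GRCm38 and mm10 as builds, and no source used here gives versions, annotation or strand. Without the strand setting, reads of overlapping genes cannot be told apart.

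The tests used edgeR 4.0.16 in R 4.3.3: filterByExpr (minimum count 10, minimum total 15), TMM factors (0.887 to 1.12), and 1 quasi-likelihood fit of all 10 libraries with a coefficient per group (common dispersion 0.0431), two-sided, with Benjamini-Hochberg adjustment over the 13214 genes tested and calls at 0.05. The steps were tested on simulated data. The 852 rows that have an Entrez number but no symbol, holding between 0.173 and 0.203% of counts, were kept. The SE is the log2 fold change over the square root of F. A floor of 3 counts is 0.231 to 0.377 CPM, and floors and intervals cover counting error only. Alternatives were DESeq2 1.42.0 size factors and test, library totals alone, no low-count filter, limma 3.58.1 (voom, and trend on log2 FPKM), title or replicate number as a block, and each library left out.

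Samples were grouped by the labels. Title numbers shared by a gut and a spleen library (4 pairs) were taken as pairing for the tissue comparisons. The paired libraries' deviations from their group means correlated at 0.296 to 0.41 over the genes tested. The 2 libraries of a gut group deviate from their mean by mirror-image values, so these correlations are not independent. They do not show what the title number stands for. Every tested member is named, those called or with the lowest p in a contrast are given by library, and list genes are named only where called. The members and lists were chosen with earlier results of these data known.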

Additional observations from a re-analysis of the deposited data

Results flagged for a closer look

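The Maf effect on Il17rb and on Il5ra went in opposite directions in gut and spleen, with no overlap between genotypes in either tissue, as it did for 0.613% of all genes (81 of 13214). For Il17rb the libraries had 78.4 and 84.5 CPM in Maf-KO gut against 91.8 and 133 in WT gut, and 6.83, 4.51 and 5.94 CPM in Maf-KO spleen against 4.0, 4.31 and 2.28 in WT spleen. The difference of the effects was -1.16 on the log2 scale (SE 0.36) and was not called in edgeR (adjusted p = 1), nor in any alternative (adjusted p 0.543 to 1). For Il5ra the counts were 4 and 2 in Maf-KO gut against 0 and 0 in WT gut, and 8, 14 and 4 in Maf-KO spleen against 19, 21 and 18 in WT spleen. The fitted difference of 5.30 (adjusted p = 1) depends on the prior count given to the group at 0 and is no bound. No group had the 4 samples that a test for a single outlying library needs.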

How the results depend on the processing

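Over 45 values named in the report and their 803 comparisons with an alternative, 738 kept direction and side of the threshold, 46 lost a call, 18 gained one and 1 changed direction. The last was Il1r2 in spleen, where Maf-KO against WT ran from -0.20 (without Maf-KO spleen replicate 1, the library with 302 CPM) to 1.27 over the libraries left out, against 0.91 with all. For Maf-KO against WT in gut 1 member (Il21r) was called by DESeq2 and 1 (Il21r) without the low-count filter, and for the difference between tissues 1 (Il21r) by DESeq2, each against 0 in the report. All genes called in gut numbered 74 without the filter and 112 by DESeq2, against 20. Leaving out each library gave 6 to 11 called members for gut against spleen in Maf-KO (6 without Maf-KO gut replicate 3), 9 to 13 in WT and 0 in each of the other 3 comparisons. Calls kept in all 18 alternatives were, in Maf-KO, Il17rb, Il6ra, Il21r, Il12rb1 and Il17ra and, in WT, Il17rb, Il12rb1, Il6ra, Il18rap, Il17ra, Il5ra, Il6st and Il17re.

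With the title number as a fixed factor, gut against spleen gave 13 called members in Maf-KO (39.7% of all genes called) and 14 in WT (37.2% of all genes called). With the title number as a random effect (consensus correlation 0.509) it gave 15 in Maf-KO and 16 in WT, for which no share of all genes is given here. The changed calls of both blocks stand in the report. In spleen the genotypes share replicate numbers but not title numbers, and that block gave 0 called members and 0 called genes, against 0 and 2 without it. Gut groups have 2 libraries each, and a left-out library leaves a lone sample that is assumed to vary like the other groups.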
